A study of Rattus norvegicus with 53 samples.

Results

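The cytosolic ribosomal protein genes are described here in rat blood mononuclear cells cultured with serum or plasma of different rats. The members were all genes whose array annotation gives a symbol of the Rpl or Rps number series, or Rplp0, Rplp1, Rplp2 or Rpsa, leaving out pseudogene symbols and the Rps6k kinases. Each gene was represented by its brightest probe set (highest 53-array mean), and only probe sets annotated to a single gene were used. A total of 48 genes met this rule of the 14217 genes with a single-symbol probe set, 15 of the small subunit and 33 of the large subunit. Rplp1 and Rplp2 were not among them.

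All cultures used mononuclear cells of healthy Brown Norway (BN) donor rats of 180 days, an inbred strain without diabetes, held for 6 h with 20% plasma or serum. The donor cells served as a reporter of what the added fluid contained. Cells received the donor's own (autologous) BN fluid (10 arrays), fluid of other (allogeneic) BN rats of 180 days (15 arrays), or fluid of BioBreeding rats. The last were DRlyp/lyp rats at 60 days (4 arrays), which develop autoimmune diabetes and lack most T cells, and DR+/+ rats at 60 days (4 arrays), which carry the wild-type alleles at the lyp locus. Interleukin-1 was manipulated by adding IL-1B to autologous BN serum (4 arrays) or the receptor antagonist IL-1RA to d60 DRlyp/lyp serum (4 arrays). Serum of DRlyp/lyp rats at 40 days came from animals injected with PBS (6 arrays) or with human IL-1RA at 350 ug/kg/day (6 arrays) for 10 days from day 30. Sample labels of the last group speak of serum supplemented with IL-1RA, and the design text, which speaks of treated rats, was followed here. Whether the replicates of a group are different animals or different cultures is not in the labels. Nor do the labels say which arrays share a cell donor, and such arrays would not be independent. The p-values therefore reflect the spread among the arrays used, which may be technical.

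Ribosomal proteins and ribosomal RNA together form the small and large subunits that translate mRNA. Their mRNAs are among the most abundant in lymphocytes and share a terminal oligopyrimidine (TOP) tract, a C at the cap followed by an unbroken run of pyrimidines, through which the kinase mTOR controls their translation. Resting lymphocytes make few ribosomes, and activation raises ribosome production. Several members also have roles beside the ribosome: Rpl5 and Rpl11 bind the p53 regulator Mdm2, Rps6 is a phosphorylated end point of mTOR signalling, and Rpsa is also known as the laminin receptor.

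The annotated transcript starts were read for the TOP tract, since this is the feature the mRNAs of the family are known to share. RefSeq start windows (build GRCr8) were matched for 43 of the 48 members, all but Rpl7, Rpl23a, Rpl27, Rpl30 and Rps29. A C at the annotated start followed by an unbroken run of C or T, at least 5 bases in all on the gene's strand, stood at the start of 12 of the 43 members (27.9%) and of 854 of all 27457 genes in the table (3.11%). The windows below run from 15 bases before the start to the end of a 30-base stretch, with the tract in capitals. The first 4 are members with a tract whose levels are given further on, and the last 2, of the paralogs Rpl3l and Rps27l, have none at the annotated start.
Rpl19, chr10:83519049-83519078, plus strand: cgcgaccagcaagctCTTTCCTTTCgctgc
Rpl34, chr2:221962269-221962298, minus strand: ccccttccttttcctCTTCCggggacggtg
Rplp0, chr12:46718376-46718405, minus strand: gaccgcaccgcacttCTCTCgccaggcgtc
Rps15, chr7:10068101-10068130, minus strand: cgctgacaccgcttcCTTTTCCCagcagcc
Rpl3l, chr10:14258431-14258460, plus strand: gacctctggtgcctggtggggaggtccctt
Rps27l, chr8:76443643-76443672, plus strand: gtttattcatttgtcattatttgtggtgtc
The match is a description of letters at annotated starts, which can lie some bases from the start used in blood cells.

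Clustering over probe sets other than ribosomal ones parted the 53 arrays into 2 sets for which no label gives a name. The first array set held 21 arrays: autologous replicates 1 to 6, allogeneic replicates 1 to 3 and both d40 groups. The second held 32 arrays: autologous replicates 7 to 10, allogeneic replicates 4 to 15, and the d60 and IL-1B groups. Levels are deposited log2 expression values, and the 2 sets were kept apart in every comparison. A linear model (limma) gave each group within a set its own mean, and a probe set was called at a Benjamini-Hochberg adjusted p under 0.05 over all 31042 probe sets tested. No level of one gene was set against that of another, since probe sets differ in brightness for the same amount of mRNA.

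Most members were among the brightest probe sets of the array, and a minority lay near the dim end. The mean over 53 arrays was above 10 for 38 members, from 7 to 10 for 2 (Rpl39 and Rpl7l1) and under 7 for 8, with a full range from 3.52 to 13.72. The 8 dim ones were Rpl28, Rpl30, Rps13 and the paralogs or copies Rpl3l, Rpl26l1, Rpl39l1, Rps27l and Rps4y2. For Rpl28, Rpl30 and Rps13 the dim value may belong to the probe set and not to the gene's mRNA in general. The single-symbol probe set of Rpl28 had a mean of 5.25, and another that the annotation gives to Rpl28 together with other symbols had 13.01. For Rpl30 the means were 4.415 against 11.66 and 13.04, and for Rps13 6.858 against 12.99. The signal of the brighter ones may come from the other genes listed, so this was not settled. In all, 36 probe sets carry several symbols that include a ribosomal protein. They are not named here, but their mean level is given beside the members' where it bears on a result. Signals of near-identical copies cannot be split by these probes.

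Members moved together from array to array. After each group's own mean was taken out, the correlation of a member with the mean of the other members over the 53 arrays was above 0.8 for 31 members, from 0.5 to 0.8 for 9 and under 0.5 for 8. All 38 members with a mean above 10 had a correlation above 0.6. The highest values, 0.96, were those of Rpl19 and Rpl27a, both large subunit proteins, which like other members outside the rule for named genes were picked after their values were seen. The 8 lowest belonged to the 8 dim probe sets. No such count was made for other bright probe sets, so moving together is not shown as particular to the members. The correlations of the members describe arrays that may share donors, normalization and signal range, so they carry no p-value.

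**Figure D1:**
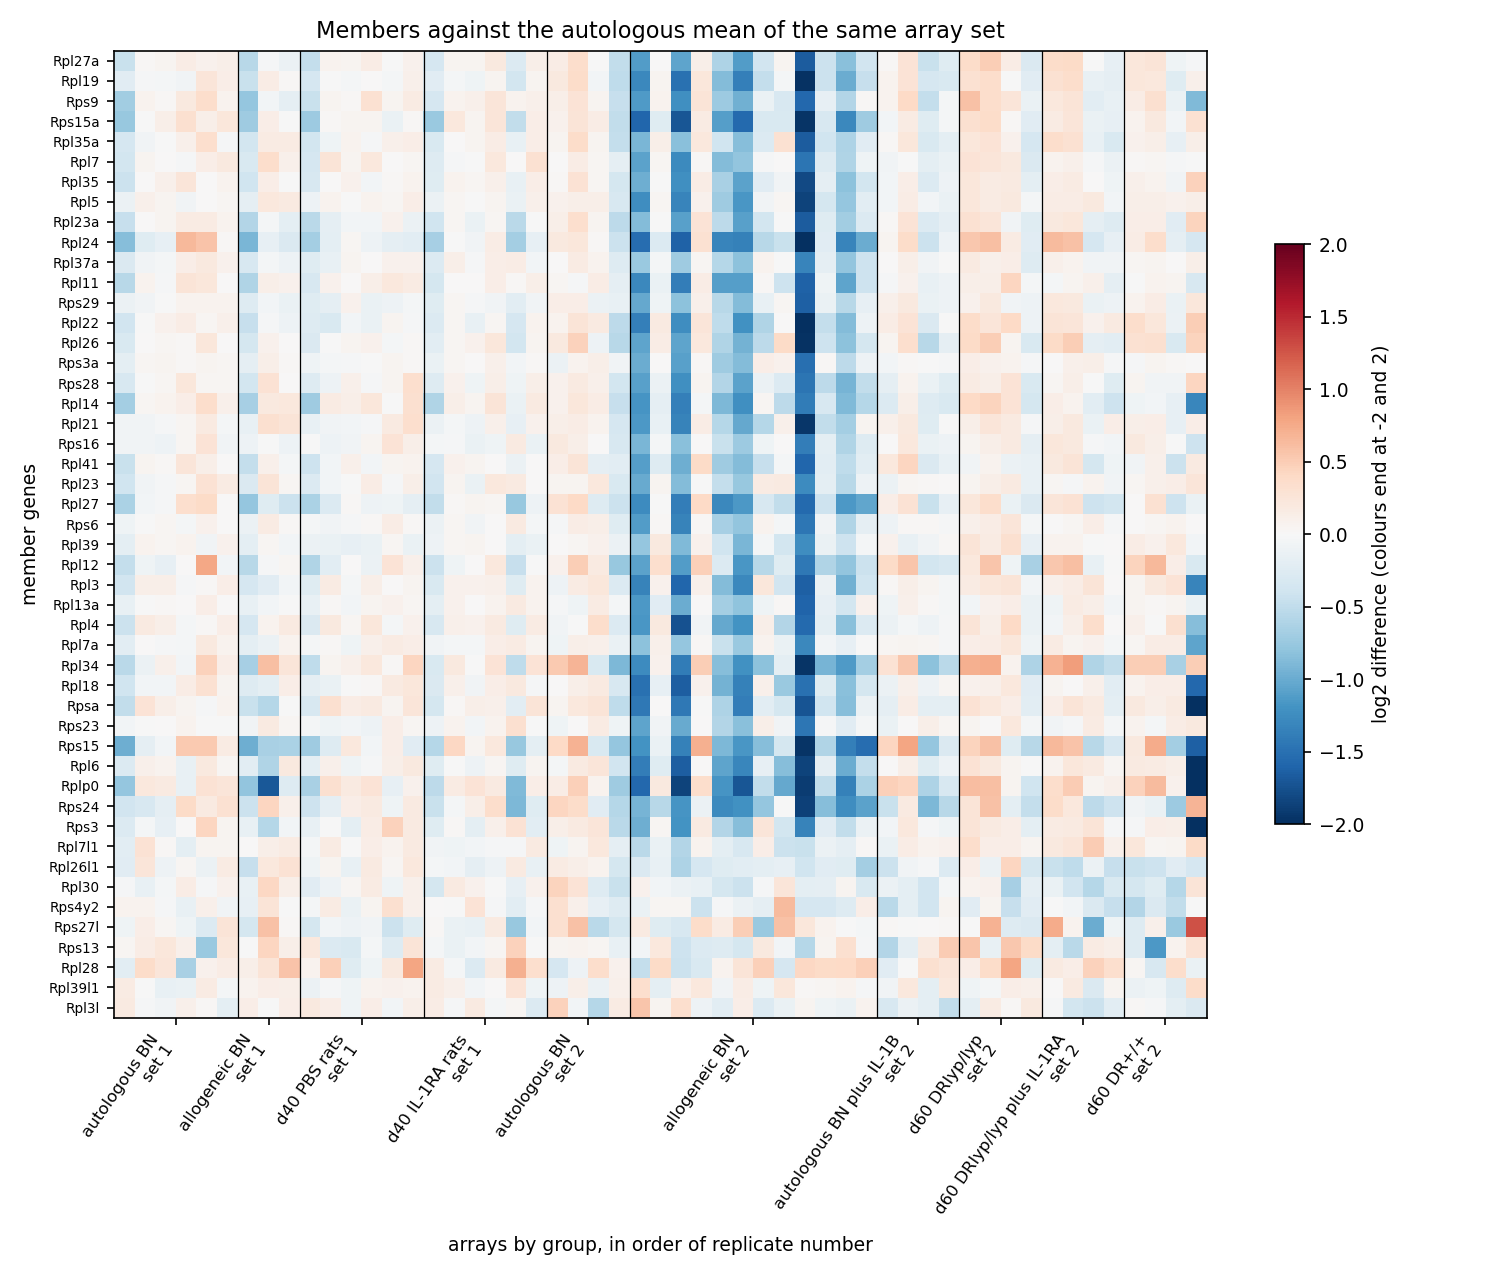
Each row is 1 of the 48 members and each column 1 of the 53 arrays, and colour is the array's log2 value minus the mean of the autologous arrays of the same set, with colours ending at -2 and 2. Rows run from the highest to the lowest correlation with the other members. The blue columns among the allogeneic arrays of set 2 run through most rows, and the last DR+/+ column is blue in only some.

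No member passed the test in any of the comparisons, in either direction. The largest shift was that of allogeneic against autologous BN fluid in the second array set. There 44 of 48 members lay lower with allogeneic fluid and the median log2 difference over members was -0.55. The smallest adjusted p over members was 0.0984 (limma), so the shift stayed short of the threshold for each gene.

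The mean over the 48 members gives the shift array by array. It was 11.36, 11.46, 11.28 and 10.91 on the 4 autologous arrays of set 2. On the 12 allogeneic arrays of set 2 it ran from 9.89 over a median of 10.79 to 11.36. The groups overlapped: 6 of the 12 allogeneic arrays lay within the autologous range, and 6 lay below its lowest value. The 6 lower ones were replicate 12 with 9.89, replicate 6 with 10.21, replicate 4 with 10.32, replicate 9 with 10.37, replicate 14 with 10.61 and replicate 8 with 10.62. They were also the 6 lowest of all 53 arrays. Of the members, 34 of 48 lay below all 4 autologous arrays on each of these 6 arrays, among them 32 of the 38 with a mean above 10. The 6 arrays were picked by their low member mean, so this count follows in part from that choice. No such count was made for other probe sets, so it is not a result particular to the members.

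**Figure D2:**
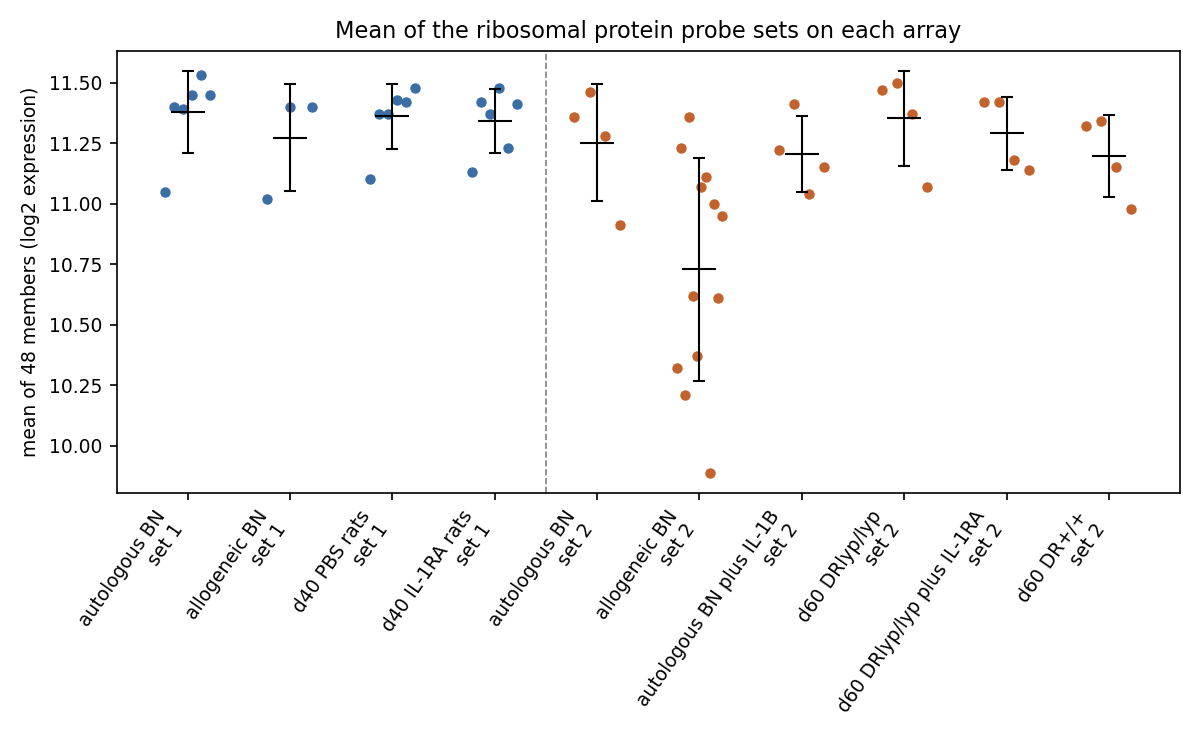
Each point is the mean log2 expression of the 48 members on 1 array, by group, with set 1 left and set 2 right of the dashed line, and the bar shows the group mean with 1 SD. Allogeneic arrays of set 2 spread from 9.89 to 11.36, and the means of the other groups lie between 11.2 and 11.38.

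Among small subunit proteins the shift was seen in Rps28, Rps24 and Rps15a, the members with the smallest p. Rps28 read 13.15, 13.25, 13.17 and 12.71 on the 4 autologous arrays and from 11.61 over a median of 12.51 to 13.12 on the 12 allogeneic ones. Its difference was -0.65 (SE 0.178, limma adjusted p = 0.0984). The highest allogeneic arrays lay inside the autologous range and the lowest well under it. Rps24, which is mutated in some cases of Diamond-Blackfan anaemia, read 11.78, 11.71, 11.12 and 10.78 against a range from 9.48 over 10.35 to 11.34. Its difference was -0.92 (SE 0.252), with the same adjusted p. Rps15a read 12.45, 12.62, 12.51 and 11.86 against a range from 10.4 over 11.45 to 12.52, a difference of -0.91 (SE 0.254), also at an adjusted p of 0.0984. In all 3 genes the lowest autologous array was replicate 10. Rps6 read 13.33, 13.5, 13.47 and 13.12 on the autologous arrays and from 11.91 over 12.96 to 13.42 on the allogeneic ones, a difference of -0.51 (SE 0.173, adjusted p = 0.129). Rpsa had a difference of -0.71 (SE 0.265, adjusted p = 0.155).

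Among large subunit proteins Rplp0, which anchors the stalk that recruits elongation factors, had the largest difference, -0.97 (SE 0.386, adjusted p = 0.176). It read 12.77, 13.09, 12.69 and 11.91 on the autologous arrays and from 10.71 over 11.51 to 12.97 on the allogeneic ones, so the groups overlapped here too. Rpl24, which sits at the bridge between the subunits, had a difference of -0.95 (SE 0.273, adjusted p = 0.102), and its allogeneic arrays ran from 8.83 to 11.25. Rpl19, the member closest to the family's common pattern together with Rpl27a, read 12.91, 13.08, 12.65 and 12.21 on the autologous arrays and from 10.73 over 12.03 to 12.94 on the allogeneic ones (difference -0.76, SE 0.228, adjusted p = 0.105). Rpl5 had a difference of -0.63 (SE 0.196, adjusted p = 0.113). Over members with a mean above 10 the median was -0.53 for 12 small subunit proteins and -0.63 for 26 large subunit proteins. It was -0.70 for the 10 with a TOP tract at the annotated start and -0.62 for the 24 matched members without a tract at that start. Neither split was tested.

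At an unadjusted p under 0.05, 39 of 48 members were lower and 0 higher in this comparison, against 11.1% of all probe sets lower and 6.51% higher at that level. At the adjusted threshold 3 of all 31042 probe sets were called, 0.00966% of those tested in either direction. The median over all probe sets was 0.00017. Brightness goes with this shift: of 1045 other probe sets with a mean above 10, 937 were lower, with a median of -0.37, and 442 had an unadjusted p under 0.05 in that direction. The 38 members above 10 had a median of -0.62, and 37 of them were at that level. The 36 probe sets with several symbols had a median of -0.65.

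The arrays with the lowest member means also had a narrow signal range. The SD of all other probe sets on an array was 1.793, 1.799, 1.835, 1.841, 1.937 and 1.936 on allogeneic replicates 12, 6, 4, 9, 14 and 8, and from 1.977 to 2.1 on the autologous arrays of set 2. Their 99th percentiles were the 6 lowest of the 53 arrays, and 5 of their SDs were among the 6 lowest. Allogeneic replicate 11 broke the pattern, with an SD of 1.845 and a member mean of 11.11. The deposited values thus did not share 1 distribution over the arrays, and a second quantile normalization gives them the same one. After it the median of the other bright probe sets was 0.0047, against -0.37 on the deposited values. That of the members was -0.13, against -0.55. Of the members 39 were lower and 9 higher, 8 had an unadjusted p under 0.05, and 0 were called. Rpl24 then differed by -0.63 (SE 0.22, adjusted p = 0.142) and Rps28 by -0.14 (SE 0.101, adjusted p = 0.51).

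**Figure D3:**
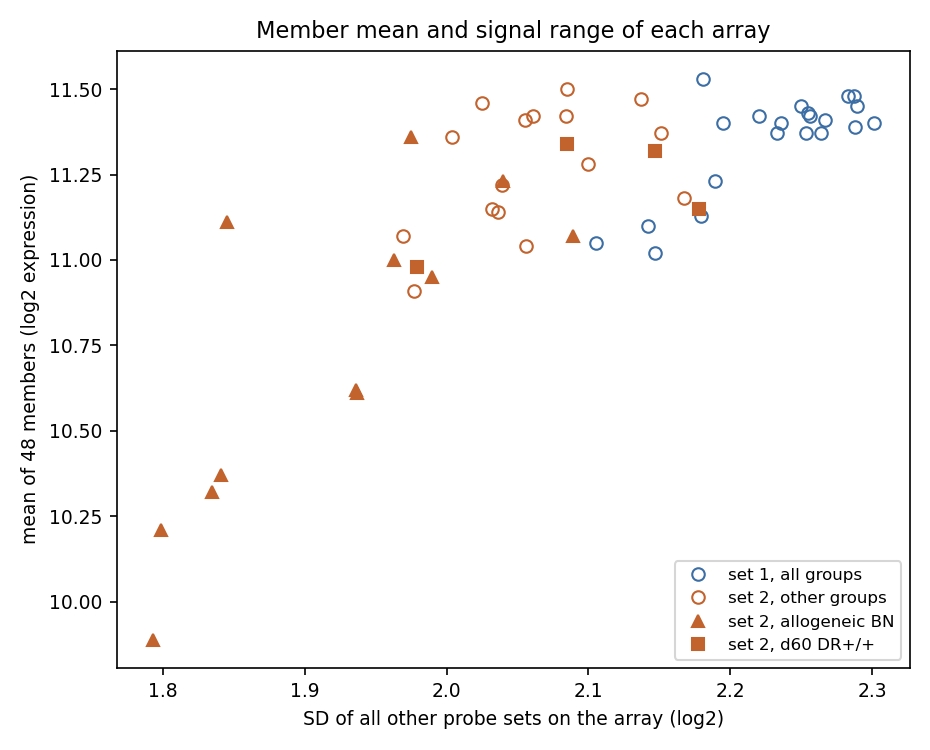
Each point is 1 array: the horizontal axis is the SD of the log2 values of all probe sets other than members, and the vertical axis is the mean log2 expression of the 48 members. Triangles are allogeneic arrays of set 2, squares DR+/+ arrays and circles all other groups. The triangles at the lower left combine low member means with narrow signal ranges, and replicate 11 stands above them at an SD of 1.845.

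Single arrays decided whether members were called. Without allogeneic replicate 7, whose member mean of 11.36 was the highest of its group, 7 members passed as lower: Rpl11, Rpl19, Rpl24, Rpl27, Rps15a, Rps24 and Rps28. Without autologous replicate 10, the lowest of its group, 7 also passed, with Rpl27a in place of Rpl11. Without allogeneic replicate 10 there were 3 and without replicate 5 there was 1, Rps28. The share of all probe sets called in these fits was 1.18%, 2.51%, 0.899% and 0.422%. When the array sets were pooled, 39 of 48 members were called lower, beside 17.4% of all probe sets called lower and 23.3% called higher.

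Markers of blood cells also had medians under 0 in this comparison, with 0 called. The median difference was -0.37 over 17 measured T cell markers, 16 of them lower, -0.24 over 9 B cell markers, -0.33 over 12 cytotoxic and natural killer markers, -0.18 over 18 monocyte markers and -0.28 over 10 platelet markers. The mean of the T cell markers ran from 8.1 to 9.22 on the autologous arrays and from 7.81 to 9.02 on the allogeneic ones. The monocyte mean ran from 7.48 to 8.12 and from 6.92 to 8.57. The part of cell composition and of signal range in the members' difference was not tested, and in mixed cells fewer cells of a type and less RNA per cell cannot be told apart.

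In the first array set the same contrast held 3 allogeneic and 6 autologous arrays, and most members lay close together. The member mean was 11.02, 11.4 and 11.4 on the allogeneic arrays and ran from 11.05 over 11.42 to 11.53 on the autologous ones. The median difference over members was -0.078, with 31 of 48 lower and 0 called, beside 1.07% of all probe sets called. At an unadjusted p under 0.05 there were 0 members in either direction, against 4.07% of all probe sets higher and 6.89% lower. Rplp0 had the smallest p: it read 12.23, 11.32 and 12.75 on the allogeneic arrays and from 12.24 to 13.3 on the autologous ones, a difference of -0.91 (SE 0.472, adjusted p = 0.483). Replicate 2 held its lowest value, and without that array the difference was -0.52 (SE 0.54, adjusted p = 0.999). The same array had the lowest actin signal ratio of 3′ over 5′ probe sets in its group (as a log2 difference), 0.762 against 3.601 and 2.814. Its Gapdh difference was 3.216 against 3.524 and 4.116, within the set 1 range from 2.221 to 4.116. With the actin measure as a covariate the difference of Rplp0 was 0.18. What sets the actin value of this array apart was not tested. The number of calls over all probe sets moved with single arrays: 332 were called with all arrays, 0 without allogeneic replicate 2, 0 without replicate 3 and 978 without replicate 1. Leaving out an autologous array gave 82 to 830, with the lowest without replicate 4 and the highest without replicate 1. With the actin measure as a covariate 0 of all probe sets were called. Rps15, near the decoding centre of the small subunit, read 11.16, 11.49 and 11.51 against 11.17 to 12.66 (difference -0.76, SE 0.421, adjusted p = 0.531), so that the allogeneic arrays lay at the low end of the autologous range. Rpl27 differed by -0.49 (SE 0.29, adjusted p = 0.573).

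The allogeneic effect differed between the sets by a median of 0.41 over members, all 48 being less negative or more positive in the first set. The test of this difference called 0 members, beside 0.696% of all probe sets. Those 216 calls became 0 without allogeneic replicate 2 or 3 and 1040 without replicate 1, and leaving out any other array gave 29 to 361. They also became 0 with the actin measure as a covariate. An unadjusted p under 0.05 was reached by 4 members, all in that direction, against 6.15% of all probe sets in that direction and 6.01% in the other. After the second quantile normalization 2 members reached it, beside 12.4% of all probe sets in either direction. With the actin measure as a covariate 18 did, beside 9.01%, and with array weights 19 did, beside 18.3%. Rpl21, a large subunit protein, had the smallest p, with 0.15 in the first set and -0.64 in the second (difference of differences 0.78, SE 0.319, adjusted p = 0.283). Rps24 had 0.03 and -0.92 (0.95, SE 0.398, adjusted p = 0.297), and Rpl5 0.067 and -0.63 (0.69, SE 0.31, adjusted p = 0.341). Other bright probe sets had a median of 0.38 in the same test.

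The d60 DR+/+ serum left the members centred on the autologous level, with 1 array apart from the rest. The member mean was 11.32, 11.34, 11.15 and 10.98, and the median difference from autologous arrays of set 2 was -0.0026, with 25 members lower and 23 higher. In this comparison 1.35% of all probe sets were called and 0 members. The 418 calls became 43 without autologous replicate 7, 115 without replicate 8, 1118 without replicate 9 and 152 without DR+/+ replicate 1, and lay between 360 and 594 when any other single array was left out. At an unadjusted p under 0.05, 2 members were lower and 0 higher, against 7.94% and 7.81% of all probe sets. Those 2 were the dim probe sets of Rpl26l1 and Rps4y2. Rpl26l1, a copy of Rpl26, read 6.895, 6.931, 7.115 and 6.998 against 7.498, 7.463, 7.411 and 6.991 (difference -0.36, SE 0.156, adjusted p = 0.245). Only autologous replicate 10 fell among the DR+/+ values. Rps4y2, a copy of the Rps4 family, differed by -0.35 (SE 0.159, adjusted p = 0.272).

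DR+/+ replicate 4 had values far under the other arrays for some members and not for others. Rplp0 read 13.07, 13.25 and 12.7 on replicates 1 to 3 and 9.58 on replicate 4. Rps3, a small subunit protein at the mRNA entry channel that is also a DNA repair factor, read 12.64, 12.81, 12.78 and 10.06. Rpl6, a large subunit protein, read 13.24, 13.23, 13.19 and 10.86, and Rpsa 12.93, 12.85, 12.92 and 10.7. In these 4 genes the first 3 arrays lay close together and the last stood far under them. Rpl3, at the peptidyl transferase centre, read 12.12 on replicate 4 and from 13.49 to 13.71 on the others.

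Of all members, 13 lay over 0.5 lower on replicate 4 than on the mean of the other DR+/+ arrays, 9 of these over 1 lower, and 5 lay over 0.5 higher. Rps24 was one of the higher ones, with 12.02 against 11.27, 11.22 and 10.62. No such counts were made over other probe sets, so they are not shown as particular to the members. Some other gene lists also stood apart on replicate 4. The mean of elongation and initiation factors was 9.448 there and from 10.59 to 10.69 on the other DR+/+ arrays. Platelet markers read 8.376 against 9.493 to 10.16, and neutrophil markers 5.905 against 4.771 to 5.242. Mitochondrial ribosomal proteins, with 7.985 on this array, lay within 7.976 to 8.006. The 3′ minus 5′ difference of the actin probe sets was 1.133 on this array, the lowest of set 2, against 2.374 to 2.826 on the other DR+/+ arrays, and that of Gapdh was 1.635, against 2.284 to 3.363. This is a measure of how far labelled cDNA reached from the 3′ end, and its part in the member values was not tested. Rps3 differed from autologous arrays by -0.60 (SE 0.329, adjusted p = 0.368) with all 4 arrays and by 0.074 (SE 0.252, adjusted p = 0.881) without replicate 4. For Rplp0 the difference was -0.46 (SE 0.472) with the array and 0.40 (SE 0.399) without it, and for Rpsa -0.39 (SE 0.324) and 0.16 (SE 0.285). For all 3 genes the direction of the difference was that of 1 array.

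**Figure D4:**
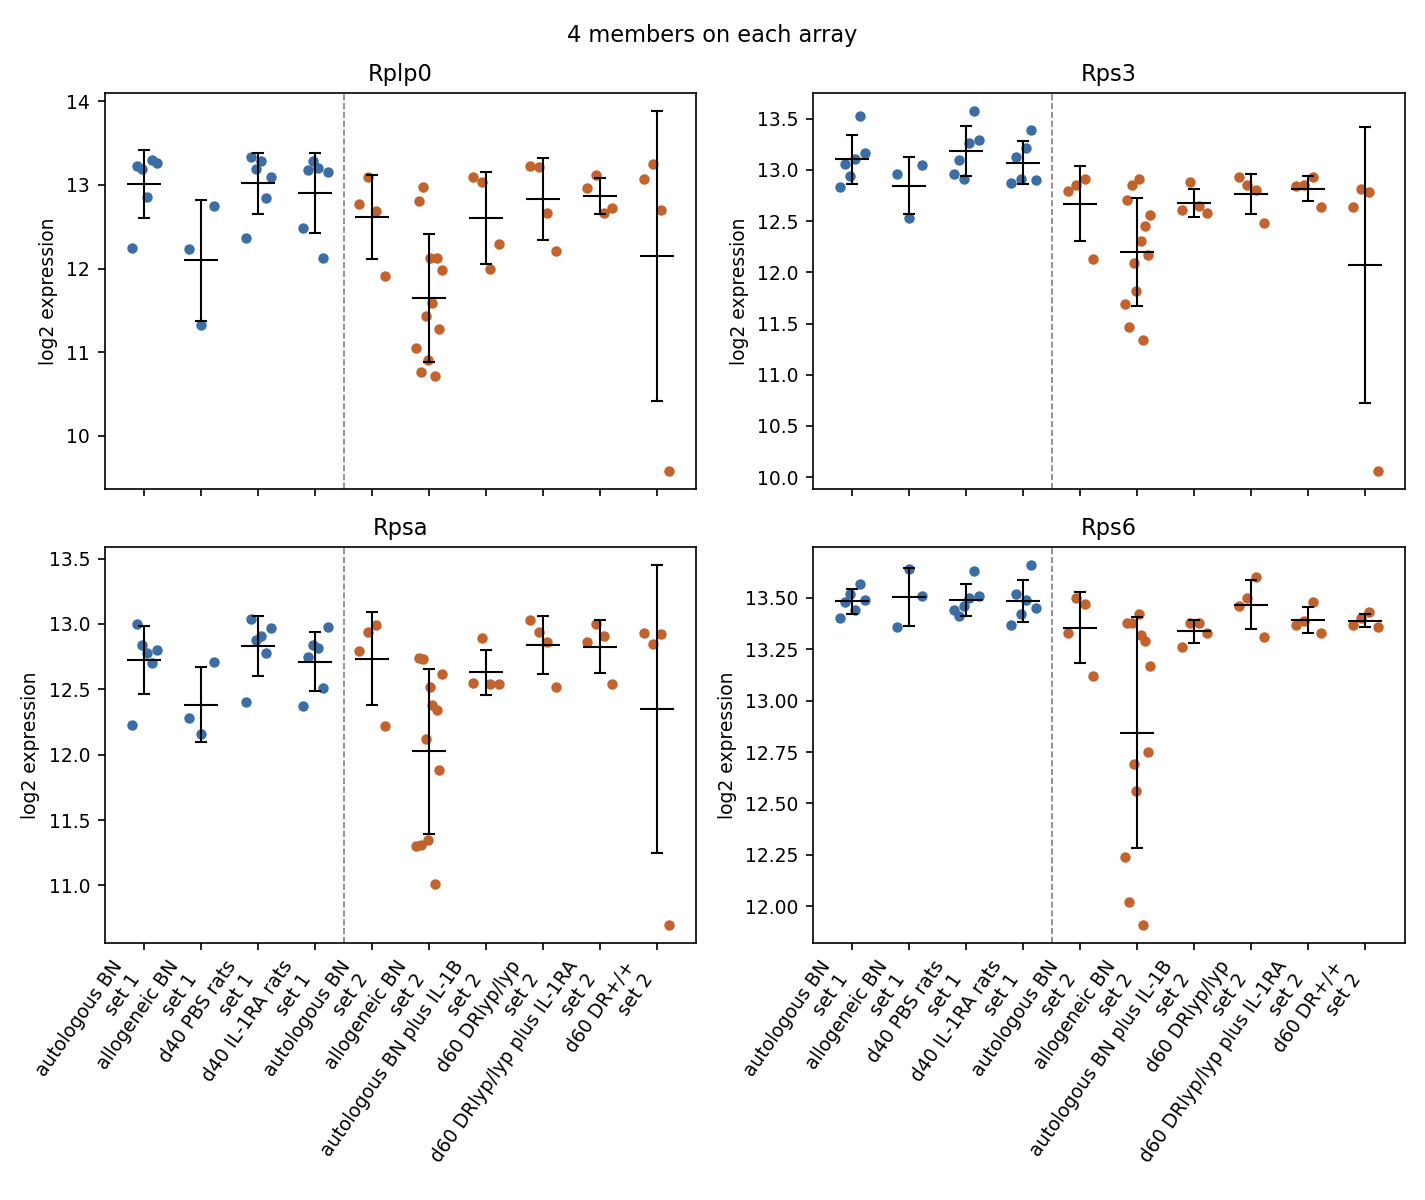
Points are log2 expression of Rplp0, Rps3, Rpsa and Rps6 on single arrays by group, set 1 left and set 2 right of the dashed line, with the group mean and 1 SD. Replicate 4 of DR+/+ reads 9.575 for Rplp0, 10.06 for Rps3 and 10.7 for Rpsa, far under the other arrays of its group, while its Rps6 value of 13.36 lies with them.

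With d60 DRlyp/lyp serum the member mean was 11.47, 11.5, 11.37 and 11.07, and the groups overlapped. The median difference from autologous was 0.097, with 44 of 48 members higher and 40 of 48 within 0.2 of 0. The other bright probe sets had a median of 0.11 and all probe sets one of -0.024, so the members lay with the bright probe sets. Calls were made for 0.0354% of all probe sets and 0 members, and 0 members reached an unadjusted p under 0.05, against 1.59% of all probe sets higher and 4.39% lower. Rps13, a small subunit protein, had the smallest p, on its dim probe set: it read 7.511, 6.816, 7.502 and 7.346 against 7.012, 7.036, 6.999 and 6.809 (difference 0.33, SE 0.231, adjusted p = 0.87). Rps4y2 differed by -0.22 (SE 0.159) and Rpl7l1, a nucleolar relative of Rpl7, by 0.17 (SE 0.145, adjusted p = 0.875).

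DRlyp/lyp and DR+/+ sera were also compared directly. The median over members was 0.074, with 34 of 48 higher with DRlyp/lyp serum, and 0 members and 0% of all probe sets were called. At an unadjusted p under 0.05 there were 4 members higher and 0 lower, against 2.87% and 3.14% of all probe sets. Rps13 differed by 0.59 (SE 0.231, adjusted p = 0.721), with its lowest DR+/+ value, 5.822, on replicate 2. Rpl26l1 differed by 0.38 (SE 0.156, adjusted p = 0.728) and read 7.469, 7.222, 7.763 and 6.996 with DRlyp/lyp serum, 3 of them above all DR+/+ values. Rps3 differed by 0.69 (SE 0.329, adjusted p = 0.804), and by 0.02 (SE 0.252, adjusted p = 0.987) without DR+/+ replicate 4.

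Neither addition to the cultures was followed by a call. IL-1B, a cytokine that drives acute inflammatory transcription, gave a member mean of 11.22, 11.41, 11.04 and 11.15 and a median difference of -0.023 from autologous serum alone. Of the members 44 of 48 lay within 0.2 of 0, and 0 reached an unadjusted p under 0.05, beside 1.46% of all probe sets higher and 2.15% lower and 0% called. Rpl3l, a paralog of Rpl3 known from striated muscle, had the smallest p, with a difference of -0.28 (SE 0.143, adjusted p = 1). Rps24 differed by -0.43 (SE 0.309) and read 10.9, 11.53, 10.45 and 10.79 with IL-1B, 3 of them under 11.12, the second-lowest autologous value. IL-1RA, which occupies the IL-1 receptor without signalling, gave a member mean of 11.42, 11.42, 11.18 and 11.14 in d60 DRlyp/lyp serum. The median difference was -0.042 and 42 of 48 members lay within 0.2 of 0. At an unadjusted p under 0.05 there were 2 members lower and 0 higher, against 1.52% and 1.56% of all probe sets, with 0% called. These 2 were Rpl26l1, which differed by -0.40 (SE 0.156, adjusted p = 1), and Rpl3l, which differed by -0.30 (SE 0.143, adjusted p = 1). Rpl26l1 read 6.89, 6.833, 7.23 and 6.88, with 3 of these below all 4 arrays without IL-1RA. The median standard error over members was about 0.25 in these comparisons, above the 0.156 of Rpl26l1 and the 0.143 of Rpl3l. Neither of these 2 genes passed after adjustment over all probe sets.

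In both d40 groups the member means lay close together, with an SD of 0.134 (n = 6). The member mean ran from 11.1 over 11.4 to 11.48 with serum of PBS-treated DRlyp/lyp rats and from 11.13 over 11.39 to 11.48 with serum of IL-1RA-treated ones. The autologous arrays of the same set ran from 11.05 over 11.42 to 11.53, so all 3 groups overlapped throughout. Between the treated groups the median was -0.011 and all 48 members lay within 0.2 of 0, with a range from -0.16 to 0.11. Against autologous arrays the median was 0.0024 for PBS and -0.022 for IL-1RA serum. No member was called, and 0 had an unadjusted p under 0.05 in these 3 comparisons. The background of calls was 0.00322% of all probe sets between the treated groups and 0% for each against autologous. At an unadjusted p under 0.05 it was 1.25% higher and 0.718% lower between the treated groups, 1.05% and 2.5% for PBS serum, and 0.383% and 0.303% for IL-1RA serum. The smallest p belonged to Rpl7l1 between the treated groups (-0.099, SE 0.119, adjusted p = 1), and to Rpl28 for both against autologous (0.20 for PBS and 0.18 for IL-1RA, SE 0.19, adjusted p = 1), on its dim probe set. These last 2 comparisons share the autologous arrays.

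**Figure D5:**
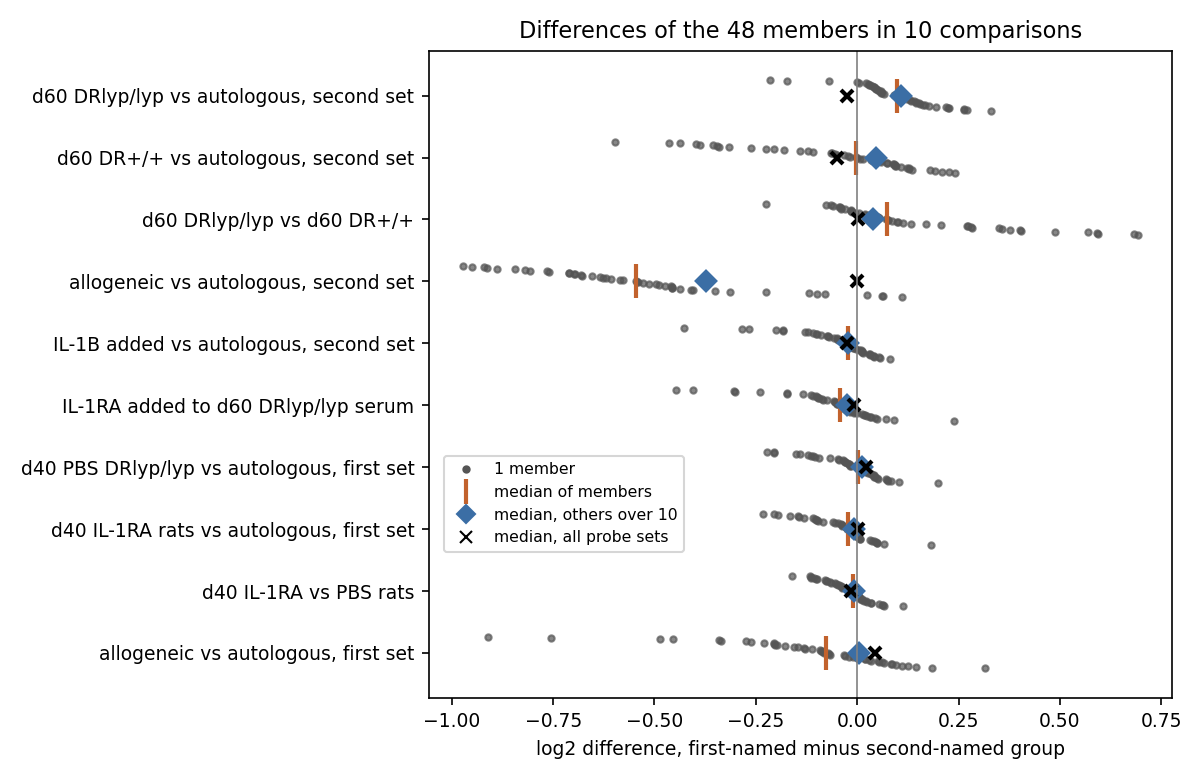
Small points are the log2 differences of the 48 members in 10 comparisons, first-named minus second-named group, with the median of the members, of other probe sets with a 53-array mean over 10 and of all probe sets. The members of the allogeneic comparison in set 2 centre on -0.55 and other bright probe sets on -0.37, and in the d40 comparison of treated rats all members lie between -0.16 and 0.11.

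Arrays with the same replicate number resembled each other for some members. Rps15 read 12.19, 12.32, 11.49 and 11.19 with DRlyp/lyp serum, 12.39, 12.3, 11.19 and 11.4 with added IL-1RA, and 12.16, 12.53, 10.96 and 11.45 with IL-1B, for replicates 1 to 4. In all 3 groups, and in DR+/+ with 11.94, 12.48, 11.05 and 10.11, replicates 1 and 2 stood above replicates 3 and 4. Rpl34, a large subunit protein, did the same in the first 3 groups, with 12.85, 12.87, 12.21 and 11.51 for DRlyp/lyp. In set 1 the lowest member mean of each of the 4 groups was that of replicate 1, with 11.05, 11.1, 11.13 and 11.02. The labels do not say what arrays with a shared number have in common. Rplp0, Rps15 and Rpl34 had the widest spread around their group means over the 53 arrays, with a residual SD of 0.71, 0.63 and 0.58.

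The autologous arrays, which occur in both sets, show the members' offset between sets. The member median was 0.13 higher in set 1, while the median over all probe sets was 0.16 lower there (-0.156 for set 1 minus set 2). Of the 48 members 35 were higher in set 1 and 13 lower, from 0.87 for Rpl12 to -0.56 for Rps27l. Rpl12, at the base of the stalk, ran from 11.86 to 13.12 in set 1 and from 10.72 to 11.97 in set 2. Rps27l, a p53-inducible paralog of Rps27, ran from 4.688 to 5.215 and from 4.971 to 6.089. In 4 members the sets did not overlap, 3 higher in set 1 (Rpl5, Rpl13a and Rpl21) and 1 lower (Rps4y2), beside 12.3% and 20.4% of all probe sets. No test was made, since the sets were defined from these arrays.

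The paralogs followed the other members only in part. Rpl7l1, the brightest of them, had a correlation of 0.54 with the mean of the others and a difference of -0.22 in the allogeneic comparison of set 2, where its parent gene Rpl7 differed by -0.53. Rpl26l1 had 0.29 and differed by -0.31, and Rpl26 by -0.58. Rpl3l had -0.33 and differed by 0.023, and Rpl3 by -0.68. Rpl39l1 had -0.15 and differed by 0.064, and Rpl39 by -0.41. All but Rpl7l1 lie under 7, where background correction compresses differences, so unequal values within a pair need not mean unequal mRNA changes.

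The genes of the wider translation machinery were read from fixed lists. In the allogeneic comparison of set 2 the median was -0.55 over 27 elongation and initiation factors (26 lower), -0.64 over 12 other TOP mRNAs (12 lower), -0.35 over 45 ribosome biogenesis genes (42 lower), -0.49 over 73 mitochondrial ribosomal proteins (71 lower) and -0.18 over 19 genes of mTOR and Myc control (14 lower). None of these genes was called there. The smallest p was that of Mrpl49, a mitochondrial ribosomal protein (-0.89, SE 0.2, adjusted p = 0.0821), and of Eef1d, a subunit of the factor that recharges elongation factor 1 (-1.07, SE 0.246, adjusted p = 0.0821), which is in both the elongation and the TOP list. In the other comparisons few were called. With DR+/+ serum 2 of 19 mTOR and Myc control genes rose against autologous, namely Tsc1, an inhibitor of mTOR complex 1 (1.20, SE 0.199, adjusted p = 0.000803), and Rps6ka3, a kinase downstream of ERK (1.13, SE 0.304, adjusted p = 0.0419). When each of the 8 arrays was left out in turn, Tsc1 was called in 8 fits and Rps6ka3 in 2. In set 1 Dkc1, the pseudouridine synthase of ribosomal RNA, fell by 1.96 with allogeneic serum (SE 0.483, adjusted p = 0.0284) and Mrpl38 rose by 0.72 (SE 0.169, adjusted p = 0.022). Over the 9 fits that each left out 1 array, Dkc1 was called in 3 and Mrpl38 in 6. With the actin 3′ minus 5′ difference as a covariate 0 of all probe sets were called in this comparison, so neither gene was.

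With DR+/+ serum some markers of other blood cells were called against autologous fluid. Of 18 monocyte markers 12 were higher and 6 lower, and 4 rose, Fn1, Mpeg1, Vcan and Cd14, with differences from 1.70 to 2.63 and adjusted p from 0.00235 to 0.031, and of 10 platelet markers, all lower, 2 fell, Mmrn1 by 1.52 (adjusted p = 0.0141) and Gp5 by 1.22 (adjusted p = 0.0368). Of 12 cytotoxic markers 1 fell, Gzmb by 0.63 (adjusted p = 0.0262). Over the 8 fits that each left out 1 array, Fn1 and Mpeg1 were called in 8, Vcan and Mmrn1 in 6, Gp5 in 4, and Cd14 and Gzmb in 3. The mean of the monocyte markers ran from 8.21 to 8.65 with DR+/+ serum and from 7.48 to 8.12 on autologous arrays. With d60 DRlyp/lyp serum it ran from 8.22 to 8.47, also above the autologous arrays. There the median difference was 0.45 over monocyte markers (15 of 18 higher) and -0.70 over platelet markers (10 of 10 lower), with 0 called. Vcan differed by 1.74 (adjusted p = 0.235) and Mmrn1 by -0.95 (adjusted p = 0.651). The part of these markers in the member values was not tested.

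The genes most like the members over the 53 arrays, by the correlation of residuals with the mean of the members, were Eef1b2 (0.94), Eef1d (0.92), Naca (0.92), H2az1 (0.92) and Slc25a5 (0.91), among 14169 other genes. The most opposed were Mark4 (-0.84), Adam22 (-0.84) and Nenf (-0.82).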

How the data were processed

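Expression was measured in 53 cultures on Affymetrix rat arrays, 1 array per culture. The deposited values are log2 expression per probe set; per the submitters' processing notes the authors used RMA (background correction, quantile normalization and summary of probes) and Partek 6.2. What Partek was used for, and when arrays were scanned, is not given in the sources used here. Such values compress differences near background. Whether quantile normalization ran over all 53 arrays together is not given in the sources used here. The deposited values do not share 1 distribution. The SD of non-ribosomal probe sets ran from 1.793 to 2.301 over the arrays, and their 99th percentile from 10.28 to 11.59. Precision is limited by the number of arrays.

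Of 31099 probe sets 57 controls were left out and 31042 tested: 20826 had 1 symbol in GEO's platform annotation, 436 several and 9780 none. Probe sets with several symbols were not named. The annotation was checked against RefSeq's rat gene table (20764 matched, 0 symbols updated).

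A model of 10 group and set means (8 groups, 2 of them in both array sets) was fitted to all 53 arrays with limma 3.58.1 in R 4.3.3, with a variance trend, and adjusted by Benjamini-Hochberg within a comparison. SE is limma's moderated standard error. The array sets came from Ward clustering of non-ribosomal probe sets; complete linkage placed 53 of 53 arrays alike. The fit was tested on simulated data with independent noise. That simulation held no correlation between arrays or probe sets, so it does not bear on the p-values where such correlation is present. Figures used Python 3.11.15 and matplotlib 3.10.9.

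The members, the gene lists and the array sets were chosen with earlier results of these data known. Named genes were, per comparison, the 3 members of smallest p if none was called, stalk and subunit proteins, paralogs with their parents, members with extreme spread or set offset, and, from each list, up to 4 called genes or the 1 with the smallest p; others are stated as picked after their values were seen.

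Whether replicate numbers pair arrays was checked from the correlation of residuals between same-numbered arrays over non-ribosomal probe sets, with a minimum of 0.1 for every pair. They paired the arrays of d60 DRlyp/lyp and DR+/+ (lowest r 0.174), of both d40 groups (0.401) and of d40 IL-1RA and autologous serum (0.129). Added IL-1RA (lowest r 0.069, mean 0.383), d40 PBS against autologous (0.0509, 0.344) and allogeneic in set 1 (0.0886, 0.302) missed the minimum, though same-numbered arrays were alike on average. The differences, SEs and p-values of the Results come from the unpaired fit.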

Additional observations from a re-analysis of the deposited data

Results flagged for a closer look

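In groups of 4 to 10 arrays the lowest or highest array was compared with its nearest neighbour, as a share of the group's range (Dixon's test). Of 240 combinations of group and value examined 28 passed the critical value, whose nominal rate of about 0.05 holds for values not chosen for their spread. Members moved together from array to array, and some were named for their spread, so that rate is no yardstick for this count. No share over all probe sets was computed. No explanation was tested.

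Replicate 1 of set 1 gave 10 of them, all low. On the autologous array the member mean was 11.05 (nearest 11.39), Rpl22 read 12.57, Rpl23a 12.7, Rpl3 13.3, Rpl7 12.92 and Rps15a 11.93. On the d40 PBS array the member mean was 11.1 (nearest 11.37), Rpl24 read 10.37, Rpl26 12.74 and Rps15a 11.97.

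DR+/+ replicate 4 was low for Rpl3 with 12.12, Rplp0 with 9.575, Rps3 with 10.06 and Rpsa with 10.7. DR+/+ replicate 3 was low for Rpl21 with 11.97 and Rpl34 with 11.48. Autologous replicate 10 was low for Rpl21 with 11.8, Rpl5 with 13.19, Rps13 with 6.809 and Rps3 with 12.13. DRlyp/lyp replicate 4 was low for Rpl7 with 12.7.

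High single arrays were those of Rpl26l1 with added IL-1RA (7.23, replicate 3), Rpl39 in the d40 PBS group (7.851, replicate 5), Rpl7l1 in the d40 IL-1RA group (9.39, replicate 6) and Rpsa with IL-1B (12.89, replicate 2). Replicate 5 of the first set stood apart on dim probe sets: Rps13 was low on the autologous array with 6.01 and high on the d40 IL-1RA array with 7.207, and Rps27l was low on the latter with 4.199.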

How the results depend on the processing

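The count of called members was 0 in each of the comparisons and stayed 0 in 277 of 284 counts made under other settings. The exceptions were the fit without array sets, with 39 called for allogeneic against autologous in either set's comparison, the SD of each array as a covariate, chosen after seeing the data, with 1 (Rpl14, lower with DR+/+ serum), and leaving out single arrays in the allogeneic comparison of set 2, with 0 to 7. Of 984 gene values and medians 961 kept direction and side of the threshold, 15 passed it, 4 moved and 4 reversed. The reversed ones were Rps4y2 for DRlyp/lyp against autologous without array sets (0.046), Rpl28 for d40 IL-1RA against autologous with array weights (-0.053), Rplp0 for allogeneic in set 1 with the actin difference as covariate (0.18) and Rps3 for DR+/+ without replicate 4 (0.074, in a range from -0.844 when each array was left out in turn). The cause was not tested beyond the values given with these genes. The median over members for allogeneic in set 2 was -0.13 after the second quantile normalization, -0.24 with array SD as a covariate and -0.38 with the set as an additive block.

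With the replicate number as a block 0 members were called in each of the 7 comparisons that share numbers, and the median over members in the allogeneic comparison of set 2, where the numbers do not pair the arrays (lowest r -0.23), was -0.42. No paired analysis was made for DRlyp/lyp, DR+/+ and IL-1B against the autologous arrays of set 2, which share no replicate number. T cell marker means ran in a like order, with 8.455, 8.909, 9.22 and 8.101 on autologous replicates 7 to 10. On replicates 1 to 4 they were 8.613, 8.927, 9.194 and 8.228 with DRlyp/lyp serum. With DR+/+ serum they were 8.415, 8.847, 9.233 and 8.18, and with IL-1B 8.237, 8.835, 9.035 and 8.17. On allogeneic replicates 4 to 15 they were 7.943, 8.316, 7.806, 8.726, 8.523, 8.109, 9.024, 8.61, 8.361, 8.095, 8.017 and 8.096. A pairing of the arrays by the order of these means was not tested. Whether some of the 12 allogeneic arrays share a cell donor was not tested either, and their p-values treat them as independent.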
